A study of Mus musculus with 3 samples.

Results

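The genes examined here were 8 transcription factors that mark or direct the endocrine lineages of the pituitary, Pax7, Tbx19, Neurod1, Pitx1, Lhx3, Isl1, Pou1f1 and Nr5a1. They were chosen by name, and all 8 had a row in each of the 3 count tables, out of 17775 genes with a row in any of them. The cells came from dissociated intermediate lobes (IL), the layer of the mouse pituitary between the anterior and posterior lobes, of 3-month-old mice. There was 1 single-cell library per genotype, named by its label: WT (Sox9iresCreERT2/+), P27NULL (Sox9iresCreERT2/+;p27-/-) and S2CK (Sox9iresCreERT2/+;Sox2fl/+;p27-/-). The tamoxifen-inducible Cre, driven from the Sox9 locus and thus made in cells that express Sox9, was carried by the controls as well, and by their labels all animals received tamoxifen by gavage at 4 weeks. The study's text instead places the induction of Cre for these animals at birth, and the sources used here do not settle which holds. The P27NULL library, by its label, therefore has intact Sox2 with no p27, the inhibitor of cyclin-dependent kinases encoded by Cdkn1b, and S2CK lacks p27 and carries 1 floxed Sox2 allele. The cells of each library came from pooled animals, males for WT and both sexes for P27NULL and S2CK as the study gives them.

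The members act in a known order. Pitx1 and Lhx3, a paired-like and a LIM homeodomain factor, act early in the pituitary primordium and in most of its endocrine descendants, and Isl1, another LIM homeodomain factor, is known from the early gland and from gonadotrophs. Tbx19 (T-pit) activates Pomc in both lineages that make pro-opiomelanocortin, the corticotrophs of the anterior lobe and the melanotrophs of the IL. Pax7 is a pioneer factor that opens chromatin for the melanotroph program, Neurod1 is an E-box factor of corticotrophs, Nr5a1 (SF1) directs gonadotrophs, and Pou1f1 (Pit1) directs the cells that make growth hormone, prolactin and thyrotropin.

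Promoters of 3 hormone genes on which these factors are known to act are shown to place letters that resemble their binding sites. Each window runs from 250 bases before to 50 bases after a transcription start in RefSeq (GRCm38.p6), 5′ to 3′ on the plus strand, with the matches in capitals: Pomc at chr12:3954695-3954994, Lhb, the beta subunit of luteinizing hormone, at chr7:45420696-45420995, and Prl, prolactin, at chr13:27057320-27057619. For Pomc and Prl this start is the first base of the annotated gene, while the Lhb window lies inside the span that RefSeq gives Lhb (chr7:45417608-45421855), so its start is an inner one.
Pomc: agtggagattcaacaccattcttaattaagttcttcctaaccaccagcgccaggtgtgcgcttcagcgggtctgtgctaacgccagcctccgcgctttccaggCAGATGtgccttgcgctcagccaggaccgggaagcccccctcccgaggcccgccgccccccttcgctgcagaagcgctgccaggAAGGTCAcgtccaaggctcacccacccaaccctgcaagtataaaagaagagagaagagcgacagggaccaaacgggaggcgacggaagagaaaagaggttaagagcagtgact
Lhb: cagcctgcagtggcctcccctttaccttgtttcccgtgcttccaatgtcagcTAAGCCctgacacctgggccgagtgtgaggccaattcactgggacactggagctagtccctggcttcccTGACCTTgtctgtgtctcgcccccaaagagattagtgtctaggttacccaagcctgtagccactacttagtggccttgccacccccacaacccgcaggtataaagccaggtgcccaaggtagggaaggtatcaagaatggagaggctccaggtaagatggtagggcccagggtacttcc
Prl: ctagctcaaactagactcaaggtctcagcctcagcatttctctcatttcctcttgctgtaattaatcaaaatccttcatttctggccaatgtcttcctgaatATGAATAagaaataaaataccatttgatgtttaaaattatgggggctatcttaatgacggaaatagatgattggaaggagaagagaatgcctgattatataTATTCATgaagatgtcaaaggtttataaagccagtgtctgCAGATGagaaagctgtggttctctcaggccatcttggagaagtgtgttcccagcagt
The letters searched on both strands were TAATCC or TAAGCC for Pitx1, AAGGTCA for Nr5a1, ATGNATA for Pou1f1, CAGATG for Neurod1 and TCACACC for Tbx19. The Pomc window held CAGATG and AAGGTCA, the Lhb window held TAAGCC and AAGGTCA, the latter on the minus strand as TGACCTT, and the Prl window held ATGNATA on each strand as well as CAGATG. The letters for Tbx19 were in none of these 3 windows, and bases more than 250 before each start were not searched, so sites there would be missed. Among 32851 promoter windows of the same length, 15.8% held either letters for Pitx1, 4.72% those for Nr5a1, 8.84% those for Pou1f1, 17.2% those for Neurod1 and 3.98% those for Tbx19. These are matches of short letters only, and no binding was measured.

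The tables held 2020, 4153 and 3488 cells, 8332285, 15588317 and 19239147 unique molecular identifiers (UMIs, 1 per captured transcript) and medians of 3642.5, 2740 and 4906.5 UMIs per cell in WT, P27NULL and S2CK. A total of 162 cells of WT and none of the other libraries had under 1000 UMIs, and pairs of libraries shared 2 to 4 cell barcodes. Clusters were named from marker genes that did not include the 8 members, and the members were left out of clustering. The clusters named melanotroph-like held 1155, 3501 and 2948 cells, or 57.2%, 84.3% and 84.5% of their libraries. SC-like (stem cell) clusters held 137, 104 and 82 cells, corticotroph-like 131, 92 and 64, gonadotroph-like 50, 132 and 39, Pou1f1-lineage-like 66, 29 and 34, and pituicyte-like cells, the glia of the posterior lobe, 43, 17 and 14. By Xist, 629 of the melanotroph-like cells of P27NULL and 2857 of those of S2CK were called female. By these calls P27NULL cells were mostly male, S2CK cells mostly female and WT cells all male. A cell with no Xist UMI was called male without need of a Y-linked UMI, so shallow female cells could be called male. Sex and genotype cannot be told apart between P27NULL and S2CK when all cells are used. Cdkn1b itself stood at 33.5, 30.4 and 16.9 CPM (counts per 1000000 UMIs) in melanotroph-like cells, so in the library labelled P27NULL its level was close to that of WT. Which bases the deletion removes relative to the counted 3′ end was not given in the sources used here, so these counts do not check the label. Sox2 stood at 281, 309 and 135 CPM in SC-like cells.

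A level below is the CPM of a gene in the summed UMIs of a cell type in 1 library, with an exact Poisson 95% interval. With 1 library per genotype no difference between genotypes could be tested, and every interval covers counting error only, not the spread between animals. Free RNA from broken cells enters all droplets, and the summed markers of melanotrophs stood at 3.55 to 7.80% of their melanotroph level in corticotroph-like cells, 5.53 to 16.1% in gonadotroph-like cells, 8.97 to 16.2% in SC-like cells, 1.93 to 10.5% in Pou1f1-lineage-like cells and 22.8 to 62.2% in pituicyte-like cells. A member's level at the same share of its own melanotroph level is given beside low values. In macrophage-like and endothelial-like cells, with median depths of 1113.5 to 2251 UMIs, the share of cells with a UMI was 0 to 9.30% for Pax7, 0 to 6.98% for Lhx3, 0 to 2.33% for Pitx1 and Tbx19 and 0 for Isl1, Pou1f1 and Nr5a1, and 1 macrophage-like cell had a Neurod1 UMI. Levels of different genes are not compared, since these counts come from the 3′ ends of transcripts.

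**Figure D1:**
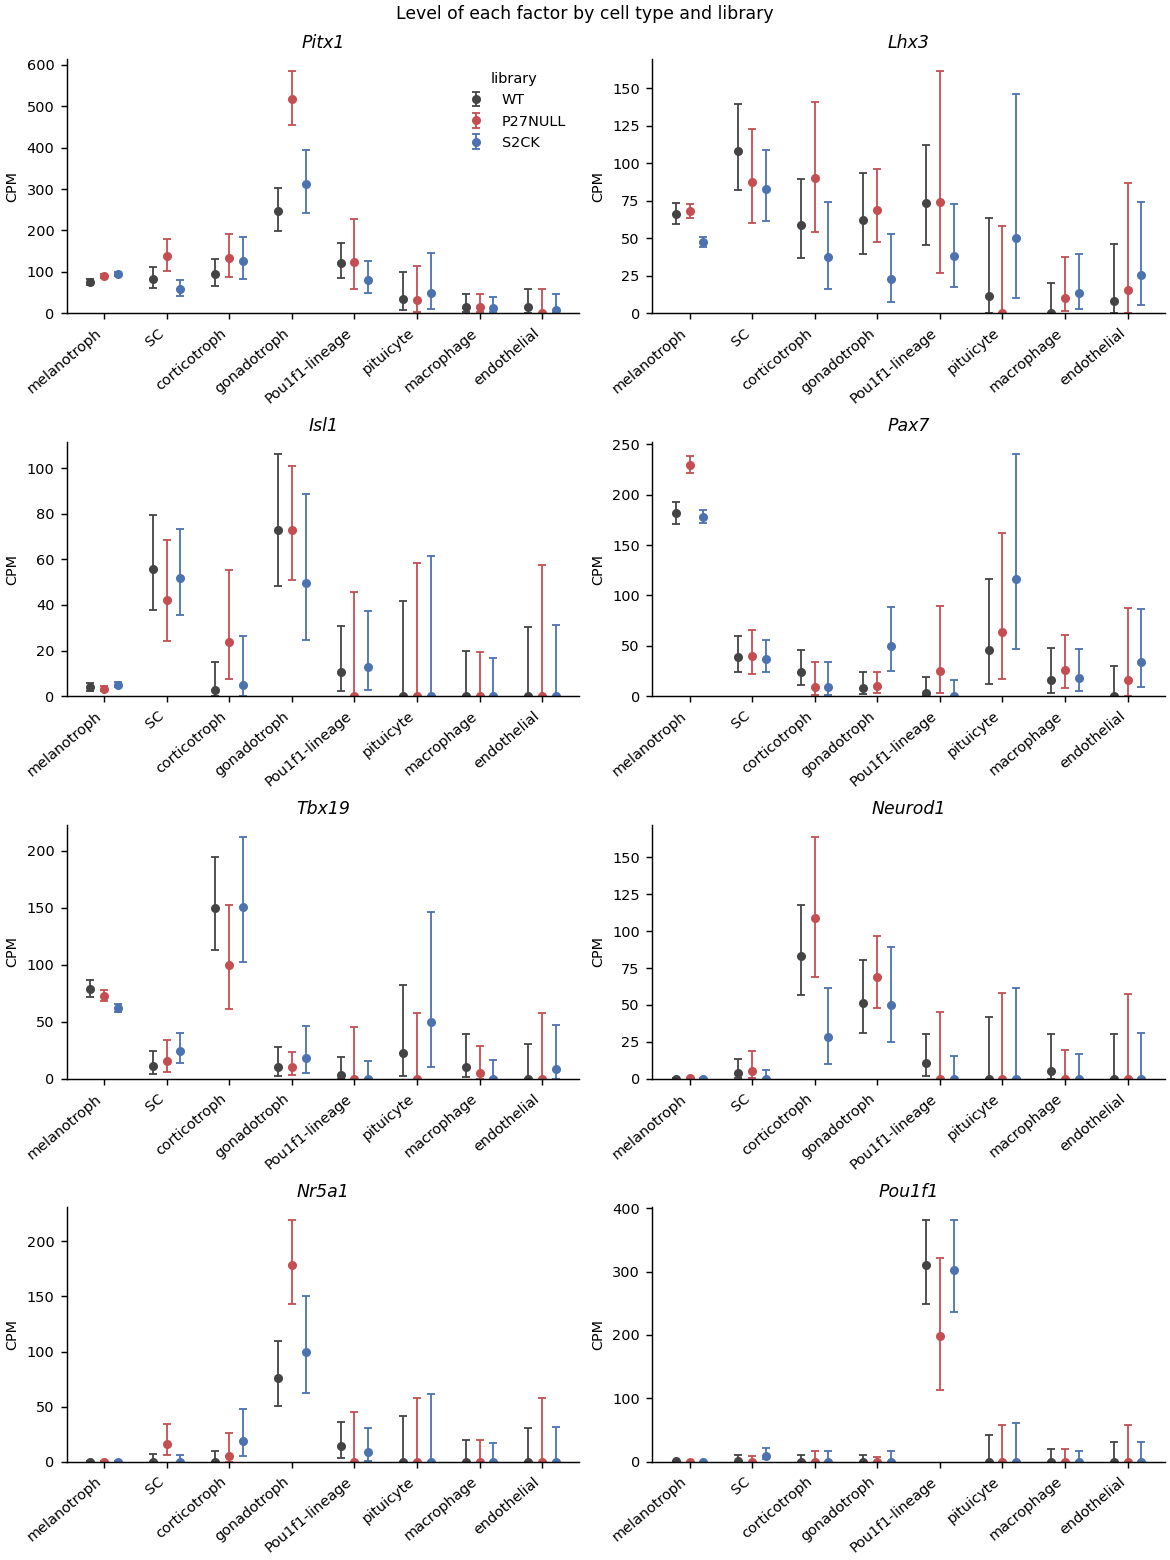
Level of each of the 8 members (CPM) in 8 cell types, 1 point per library (WT, P27NULL, S2CK), with exact Poisson 95% intervals. Pax7 is highest in melanotroph-like cells, Tbx19 in corticotroph-like cells, Pitx1 and Nr5a1 in gonadotroph-like cells and Pou1f1 in Pou1f1-lineage-like cells, in all 3 libraries.

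Pax7 (chr4:139737059-139833530) was the member most tied to melanotroph-like cells. Its level there was 181 (170 to 193), 230 (222 to 238) and 178 (172 to 184) CPM in WT, P27NULL and S2CK, from 1028, 3116 and 3007 UMIs. A UMI of Pax7 was seen in 52.2%, 48.8% and 56.7% of these cells. Of all Pax7 UMIs, 88.9%, 96.6% and 96.7% lay in melanotroph-like cells, and the lowest of the 3 levels there was above the highest in any other cell type. In corticotroph-like cells, the other Pomc lineage, Pax7 stood at 24.1 CPM from 9 UMIs in WT and at 9.49 and 9.41 CPM from 2 UMIs each in P27NULL and S2CK, beside 6.44, 8.94 and 13.9 CPM at the share of melanotroph markers. Only in WT did the interval (11.0 to 45.8 CPM) lie above that share. Over the 3 libraries together Pax7 was 12.1-fold higher in melanotroph-like than in corticotroph-like cells (log2 3.60, 95% interval 2.83 to 4.51). Clusters of all libraries drawn more coarsely put 441 cells in the corticotroph-like type instead of 287, and Pax7 was not measured in that larger group. Cells left unnamed held 79, 59 and 36 Pax7 UMIs in WT, P27NULL and S2CK. In SC-like cells Pax7 stood at 39.0, 39.7 and 37.3 CPM, above the 27.1, 20.6 and 28.8 CPM given by the marker share, though the latter lay inside the intervals of WT (24.2 to 59.7 CPM) and S2CK (23.7 to 56.0 CPM) and under that of P27NULL (22.2 to 65.4 CPM). The share of SC-like cells with a Pax7 UMI, 8.65 to 13.4%, reached past the range in macrophage-like and endothelial-like cells, though connective-tissue-like cells stood higher, at 69.8, 109 and 68.5 CPM beside 50.8, 89.1 and 74.8 CPM at the marker share. In pituicyte-like cells Pax7 stood at 45.4, 63.2 and 117 CPM, against 41.4, 76.4 and 111 CPM at the marker share. These values rest on 4, 4 and 7 UMIs in 2 cells of each library, and each interval holds the value at the marker share; the part of melanotroph RNA in them was not tested.

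**Figure D2:**
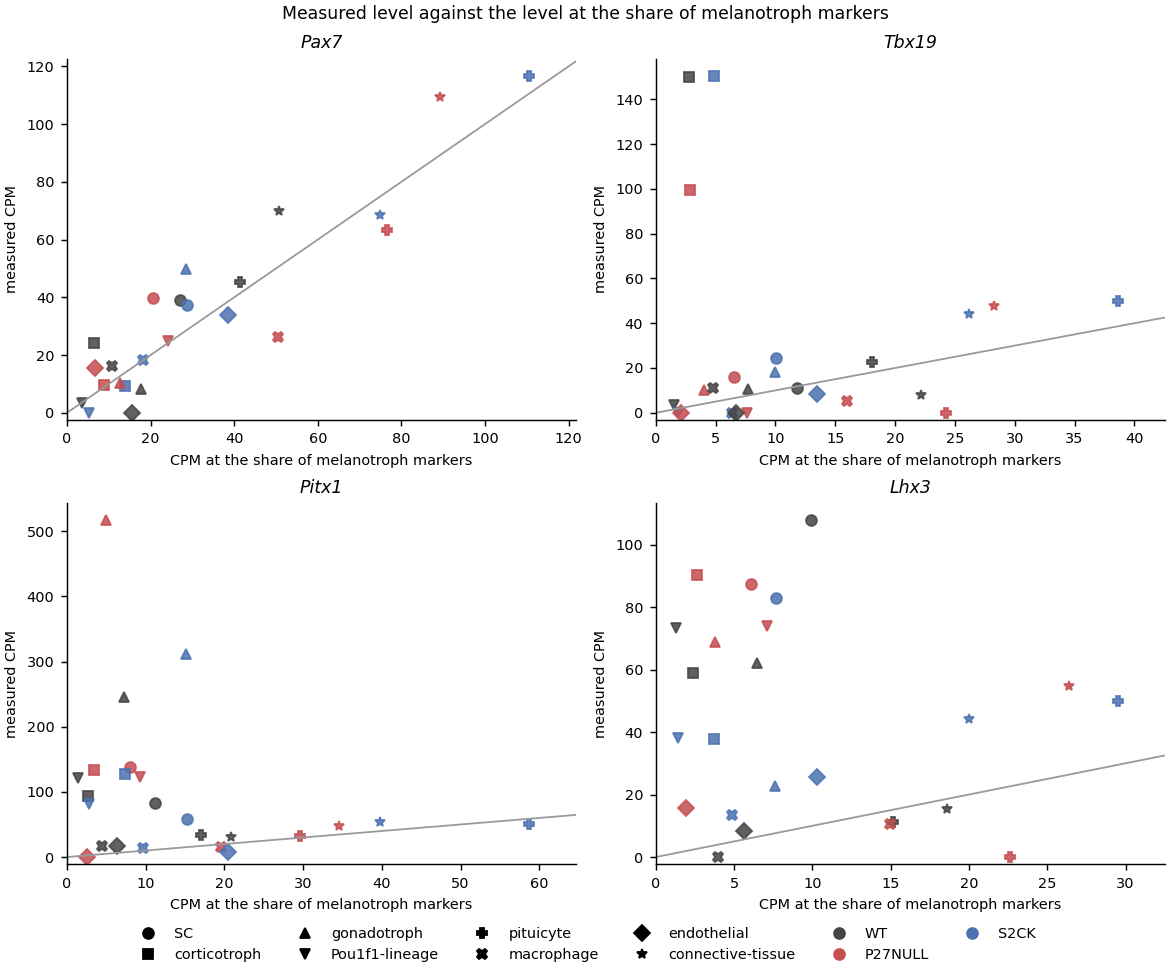
Measured CPM of Pax7, Tbx19, Pitx1 and Lhx3 in 8 other cell types (vertical axis) against the CPM they would have at the share of summed melanotroph markers found in the same cells (horizontal axis), both on linear scales, 1 point per cell type (shape) and library (colour), with the line of equality in grey. Pax7 in pituicyte-like cells lies near that line, while Lhx3 and Pitx1 in SC-like cells and Tbx19 in corticotroph-like cells lie well above it.

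Tbx19 (chr1:165137834-165160773) was found in both Pomc lineages and was higher in corticotroph-like cells. There it stood at 150 (113 to 195), 99.6 (61.7 to 152) and 150 (103 to 212) CPM in WT, P27NULL and S2CK, from 56, 21 and 32 UMIs. In melanotroph-like cells it stood at 79.0, 72.9 and 62.2 CPM, from 448, 989 and 1051 UMIs. The corticotroph-like values lay above the melanotroph-like values in all 3 libraries, and these lay above those of every other type. Over the libraries together the level in melanotroph-like cells was 0.503 times that in corticotroph-like cells (log2 -0.99, interval -1.27 to -0.70), although within P27NULL alone the interval reached past 0 (log2 -0.45, -1.07 to 0.25). Pomc, which Tbx19 activates, had the other order, with 177721, 133499 and 138809 CPM in melanotroph-like and 39560, 26944 and 30005 CPM in corticotroph-like cells. In SC-like cells Tbx19 stood at 11.2, 15.9 and 24.3 CPM, beside 11.8, 6.54 and 10.1 CPM at the marker share, and its interval lay above that share in S2CK alone (13.6 to 40.2 CPM, 15 UMIs in 4 cells).

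Neurod1 (chr2:79452637-79456636) separated the Pomc lineages the other way. In melanotroph-like cells it had 0 UMIs in 1155 cells of WT, which allows up to 0.260% of cells with a UMI at this depth and does not limit the share that express the gene, 4 UMIs in 3501 cells of P27NULL and 3 UMIs in 2948 cells of S2CK. In corticotroph-like cells it stood at 83.1 (56.4 to 118), 109 (69.2 to 164) and 28.2 (10.4 to 61.4) CPM, from 31, 23 and 6 UMIs. It was thus 389-fold higher in corticotroph-like cells over the libraries together (log2 of melanotroph over corticotroph -8.60, interval -9.98 to -7.47). Of the 6 members with at least 50 UMIs in these 2 cell types, Pax7 and Neurod1 lay past 4-fold, 1 in each direction, and of all 12488 genes with as many UMIs 5.70% were 4-fold higher and 2.30% 4-fold lower in melanotroph-like cells. Neurod1 was not confined to corticotroph-like cells. It stood at 51.4, 68.9 and 49.7 CPM in gonadotroph-like cells, and these values overlapped those of corticotroph-like cells while both lay above every other type. Among the 50, 52 and 20 cells with a Neurod1 UMI, 15, 6 and 4 also had a Tbx19 UMI, or 30.0%, 11.5% and 20% against 21.0%, 19.2% and 25.3% of all cells. An Nr5a1 UMI was in 9, 14 and 4 of them, or 18.0%, 26.9% and 20% against 1.14%, 1.40% and 0.688% of all cells. Within corticotroph-like cells the S2CK level lay below that of P27NULL (log2 -1.95, interval -3.54 to -0.61) and of WT (-1.56, -3.11 to -0.27), each from 6 UMIs in S2CK, and against the female cells of P27NULL the interval of the first reached past 0 (-1.18, -3.15 to 0.87). With clusters of all libraries drawn more coarsely the WT level of Neurod1 in these cells was 51.1 CPM (35.6 to 71.0).

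Among the early factors, Pitx1 (chr13:55825044-55836190) was found in all endocrine types and in SC-like cells, with its peak in gonadotroph-like cells. There it stood at 246 (198 to 302), 517 (455 to 585) and 312 (242 to 394) CPM in WT, P27NULL and S2CK, and 70.0%, 72.7% and 66.7% of the cells had a UMI. In the other types its levels ran from 93.8 to 133 CPM in corticotroph-like cells, 80.7 to 123 CPM in Pou1f1-lineage-like cells, 58.4 to 138 CPM in SC-like cells and 74.6 to 94.5 CPM in melanotroph-like cells. These 4 types overlapped each other, and all lay above macrophage-like and endothelial-like cells (0 to 16.5 CPM).

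Lhx3 (chr2:26200212-26208249) had the flattest profile over the endocrine types and SC-like cells. Its means over the libraries ran from 92.6 CPM in SC-like cells down to 51.2 CPM in gonadotroph-like cells, and no neighbours in that order were apart. The lowest SC-like value, 82.8 CPM, still lay above the highest of Pou1f1-lineage-like (74.1 CPM), gonadotroph-like (68.9 CPM) and melanotroph-like cells (68.0 CPM). Only corticotroph-like cells, with up to 90.1 CPM, overlapped SC-like cells among the endocrine types. In SC-like cells it stood at 108, 87.3 and 82.8 CPM, from 58, 33 and 51 UMIs, far above the 9.90, 6.10 and 7.70 CPM at the melanotroph marker share. In melanotroph-like cells it stood at 66.3, 68.0 and 47.5 CPM. In gonadotroph-like cells the S2CK value, 22.6 CPM from 5 UMIs, lay below the 62.2 and 68.9 CPM of WT and P27NULL.

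Isl1 (chr13:116298270-116309688) joined gonadotroph-like and SC-like cells. It stood at 73.0, 73.0 and 49.7 CPM in gonadotroph-like and at 55.8, 42.3 and 51.9 CPM in SC-like cells, and the 2 types overlapped while both lay above all others. In melanotroph-like cells it stood at only 3.88, 3.25 and 4.97 CPM, with a UMI in 1.82%, 1.14% and 2.48% of cells. Since these cells are many, they still held 26.2%, 41.9% and 61.8% of all Isl1 UMIs. Pitx1, Lhx3 and Isl1 were thus all measured in SC-like cells in all 3 libraries, in 25.5 to 32.9%, 25.0 to 37.8% and 9.62 to 30.5% of the cells.

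**Figure D3:**
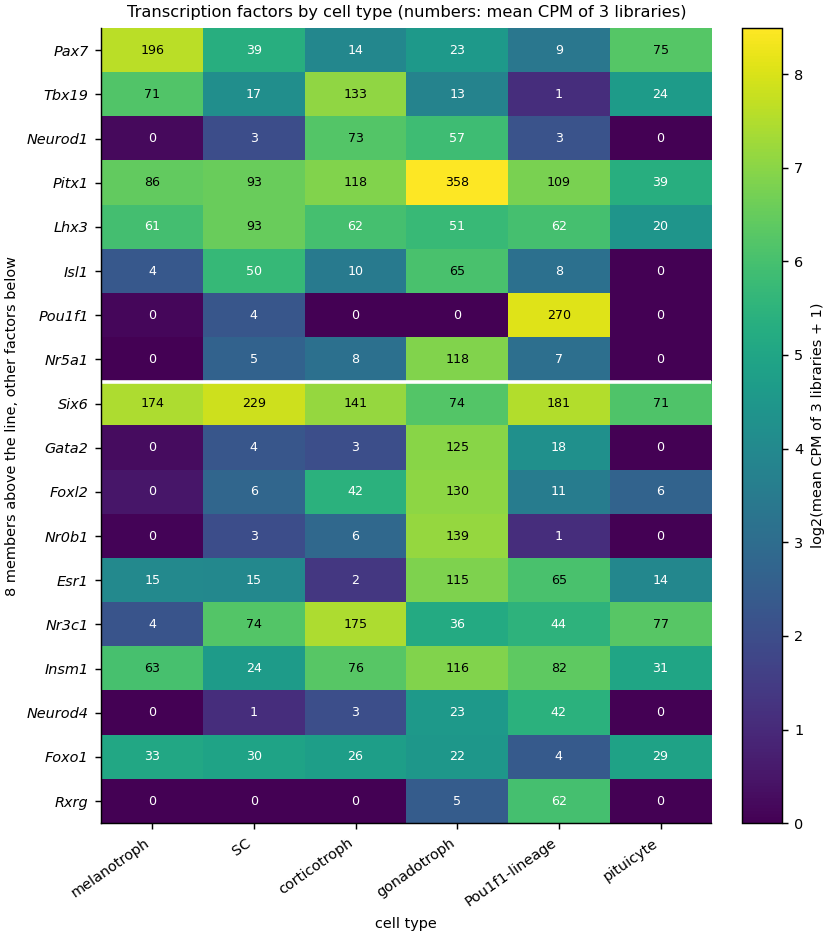
Mean CPM over the 3 libraries of the 8 members and of other pituitary transcription factors by cell type, as printed numbers and as colour on a log2(mean CPM + 1) scale, with the members above the white line. Nr5a1, Gata2, Nr0b1 and Foxl2 have their highest values in gonadotroph-like cells, and Nr3c1 in corticotroph-like cells.

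Nr5a1 (chr2:38692656-38714542) was the marker of gonadotroph-like cells among the members. It stood at 75.7 (50.3 to 109), 178 (143 to 220) and 99.4 (62.3 to 150) CPM in WT, P27NULL and S2CK, with a UMI in 38.0%, 42.4% and 46.2% of the cells, and these cells held 87.5%, 92.6% and 78.6% of its UMIs. Melanotroph-like cells had 0 Nr5a1 UMIs in each library. In the 2948 such cells of S2CK a count of 0 allows up to 0.125% of cells with a UMI, again a limit on detection and not on expression. Elsewhere it had at most 6 UMIs, which in the SC-like cells of P27NULL came from 1 cell. Its targets Lhb, Fshb, the beta subunit of follicle-stimulating hormone, and Gnrhr, the receptor for gonadotropin-releasing hormone, were all used to name these cells and so are described only. Lhb stood at 4266, 2749 and 1228 CPM and Fshb at 8402, 2547 and 1400 CPM, both highest in WT, where Nr5a1 was lowest, and Gnrhr at 279, 468 and 474 CPM.

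Pou1f1 (chr16:65520512-65535018) was found almost wholly in Pou1f1-lineage-like cells, which held 96.7%, 100% and 92.2% of its UMIs in WT, P27NULL and S2CK. It stood at 310 (249 to 382), 198 (113 to 321) and 302 (236 to 381) CPM in WT, P27NULL and S2CK in Pou1f1-lineage-like cells, from 89, 16 and 71 UMIs in 65.2%, 34.5% and 82.4% of 66, 29 and 34 cells. Within P27NULL the 13 female cells stood at 342 CPM (187 to 574, 14 UMIs) and the 16 male cells at 49.9 CPM (6.05 to 180, 2 UMIs), so that the log2 ratio to WT was -0.65 (-1.52 to 0.13) with all cells and -2.64 (-5.70 to -0.74) with male cells. Corticotroph-like and gonadotroph-like cells had 0 UMIs in each library, and melanotroph-like cells had 2, 0 and 0. In SC-like cells, S2CK had 6 UMIs in 1 cell and WT had 1. The level of Pou1f1 in WT and S2CK differed little (log2 -0.04, interval -0.51 to 0.43) while its targets differed in these cells by far more. Gh, growth hormone, stood at 121419, 36842 and 6566 CPM, Prl, whose promoter is printed above, at 115236, 146776 and 374059 CPM, and Tshb, the beta subunit of thyrotropin, at 4349, 24.7 and 8.50 CPM. Of the Pou1f1-lineage-like cells, 13 of 29 in P27NULL and 32 of 34 in S2CK were called female and all 66 in WT male, so the hormone mix moved with sex as well as with genotype, and the part of sex in it was not tested. These hormones were also naming markers. Over whole libraries Pou1f1 stood at 11.0, 1.03 and 4.00 CPM, and the share of cells in this type at 3.27%, 0.698% and 0.975%. The anterior lobe was removed before dissociation, so a difference in dissection and a difference in the tissue cannot be told apart here.

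Few single cells showed Pou1f1 with another restricted member. Of the 46, 10 and 29 cells with a Pou1f1 UMI, 2, 0 and 2 had an Nr5a1 UMI, which at 4.35% and 6.90% in WT and S2CK was not under the 1.14% and 0.688% of all cells. A Pax7 UMI was in 3, 0 and 0 of them. Among the 23, 58 and 24 cells with an Nr5a1 UMI, 0, 3 and 4 had a Pax7 UMI, against 33.8%, 42.8% and 49.8% of all cells. Within melanotroph-like cells the members that were found there were not split over separate cells at this depth. At 2000 UMIs per cell, to which deeper cells were reduced by expected values, Tbx19 was seen in 16.5% of cells with and 13.3% of cells without a Pax7 UMI in WT. The same shares were 12.7% and 12.7% in P27NULL and 12.3% and 11.1% in S2CK. The intervals overlapped in each library, while at the deposited depth, where deep cells show more of every gene, the shares in WT were 34.3% and 22.5%. At least 1 of Pax7, Tbx19, Pitx1 and Lhx3 was seen in 77.7%, 72.3% and 82.8% of melanotroph-like cells as deposited and in 53.3%, 59.1% and 51.9% at 2000 UMIs. Across the 6, 7 and 7 clusters that made up the melanotroph-like cells, Pax7 ran from 174 to 194 CPM in WT, 187 to 256 CPM in P27NULL and 159 to 226 CPM in S2CK, so no melanotroph-like cluster was without it.

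The comparison of genotypes in melanotroph-like cells asked whether loss of p27 went with other levels of these factors. It then asked the same for loss of a Sox2 copy in cells that express Sox9, on top of p27 loss. By the study, these are the stem cells, and melanotrophs are genetically equivalent in P27NULL and S2CK. The S2CK ratios below are thus not read as effects of a lost Sox2 copy within the melanotrophs. Most differences were small. Against WT, P27NULL had more Pax7 (log2 0.34, 95% interval 0.24 to 0.44) and Pitx1 (0.26, 0.10 to 0.42). Tbx19 (-0.12, -0.28 to 0.05), Lhx3 (0.04, -0.14 to 0.21) and Isl1 (-0.26, -1.03 to 0.55) had intervals that held 0. None of the 5 members with at least 50 UMIs lay past 1.5-fold, where 11.3% of 11453 genes did, and their median of 0.04 lay under the 0.10 of all genes. Relative to all genes, Pax7 and Pitx1 were thus higher by less than their log2 ratios. The lower bound of Pitx1 (0.096) lay under the median of all genes (0.104).

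Against P27NULL, S2CK had lower Pax7 (log2 -0.37, interval -0.44 to -0.30), Tbx19 (-0.23, -0.36 to -0.10) and Lhx3 (-0.52, -0.66 to -0.38). Isl1 was higher (0.61, 0.07 to 1.17, from 84 against 44 UMIs) and was the only one of the 5 past 1.5-fold, where 17.3% of 12150 genes were. The median of all genes in this comparison was itself -0.15 and that of the members -0.23, so relative to all genes Pax7, Tbx19 and Lhx3 were lower by less than these values. Under trimmed mean of M-values (TMM) factors Pax7 was -0.24 and the interval of Tbx19 held 0 (-0.10, -0.23 to 0.03). Sex moved with this comparison. Within P27NULL, Pax7 stood at 186 CPM (170 to 202) in female and 241 CPM (231 to 250) in male melanotroph-like cells, and Lhx3 at 56.2 and 71.6 CPM. For Tbx19 the female and male values were close, at 72.3 (62.7 to 82.8) and 72.6 (67.6 to 78.0) CPM, beside 62.2 CPM (58.5 to 66.0) in S2CK. The intervals of the female cells and of S2CK overlapped. Against the female cells of P27NULL alone, S2CK differed in Pax7 by only -0.06 (-0.20 to 0.07) and in Lhx3 by -0.24 (-0.49 to 0.01), and in Pitx1 by 0.29 (0.09 to 0.50) where it had been 0.08 with all cells. Isl1 went from 0.61 to 1.25 (0.06 to 2.73), with 6 UMIs in the female cells of P27NULL.

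Against WT, S2CK had Pax7 within counting error of it (log2 -0.03, interval -0.13 to 0.08), lower Tbx19 (-0.35, -0.51 to -0.18) and Lhx3 (-0.48, -0.66 to -0.30) and higher Pitx1 (0.34, 0.18 to 0.50). None of the 5 members lay past 1.5-fold, where 14.4% of 11612 genes did. WT cells were male and S2CK cells mostly female, so these values carry the difference in sex whole.

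**Figure D4:**
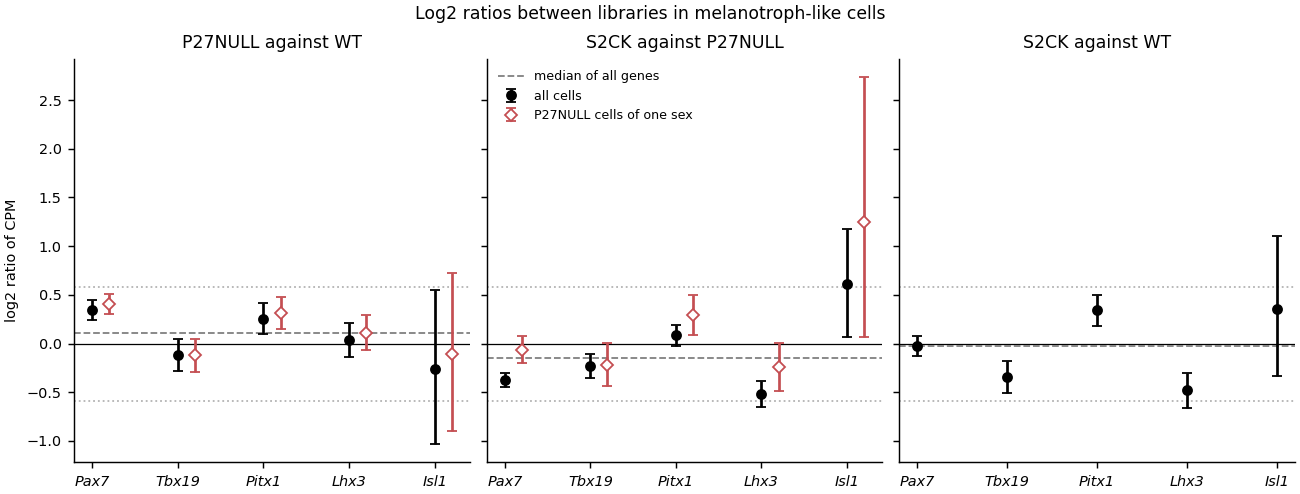
Log2 ratio of each member between libraries in melanotroph-like cells for the 3 contrasts, with 95% intervals of counting error. The dashed line is the median of all genes, the dotted lines mark 1.5-fold and the open diamonds use P27NULL cells of one sex (male against WT, female against S2CK). Pax7 is 0.34 in P27NULL against WT, -0.37 in S2CK against P27NULL and -0.03 in S2CK against WT.

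In SC-like cells, of the members with a ratio, only Pitx1 differed beyond counting error. It stood at 83.6 (61.0 to 112), 138 (103 to 180) and 58.4 (40.9 to 80.9) CPM in WT, P27NULL and S2CK, from 45, 52 and 36 UMIs. P27NULL was highest, by a log2 of 0.72 over WT (0.11 to 1.33), and S2CK lay below it by a log2 ratio of -1.23 (-1.89 to -0.59). With 11.7% and 26.7% of genes past 1.5-fold in these comparisons, Pitx1 was 1 of 2 members with at least 50 UMIs past it in each, and in S2CK against WT 0 of 3 were, where 23.5% of genes were. At 2000 UMIs per cell the ratio to WT was 0.21 (-1.08 to 1.33), and against the 18 female cells of P27NULL that of S2CK was -0.82 (-2.17 to 0.89), so both intervals then held 0. Lhx3 (-0.30, -0.97 to 0.34 and -0.08, -0.74 to 0.60 in the same order) and Isl1 (-0.40, -1.37 to 0.52 and 0.30, -0.61 to 1.26) had intervals that held 0, and in S2CK, where Sox2 was lowest, Lhx3 and Isl1 were at 82.8 and 51.9 CPM.

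In gonadotroph-like cells Pitx1 and Nr5a1 differed in the same direction. Against WT, P27NULL was higher in Pitx1 by a log2 of 1.07 (0.72 to 1.43) and in Nr5a1 by 1.24 (0.61 to 1.90), 2 of 5 members past 1.5-fold where 29.6% of 2271 genes were. Neurod1 (0.42), Lhx3 (0.15) and Isl1 (-0.00) had intervals that held 0. Against P27NULL, S2CK was lower in Pitx1 (-0.73, -1.14 to -0.34) and Nr5a1 (-0.84, -1.59 to -0.16). Both lay past 1.5-fold, where 31.1% of 2031 genes did. Against the 13 female cells of P27NULL, which held 6 UMIs of Nr5a1, the Nr5a1 ratio was -0.03 (-1.37 to 1.57). Pitx1 stood at 557 CPM (383 to 782, 33 UMIs) in these 13 cells, beside 312 CPM (242 to 394) in S2CK. With all cells of P27NULL, Lhx3 was lower in S2CK (-1.61, -3.32 to -0.25, from 5 against 34 UMIs). Pax7 was higher (2.29, 0.65 to 4.17, from 11 against 5 UMIs), and both had under 50 UMIs. Against WT the same 2 members lay on the same sides (Lhx3 -1.46, -3.21 to -0.03, from 5 against 23 UMIs, and Pax7 2.61, 0.69 to 5.09, from 11 against 3 UMIs). In S2CK against WT 0 of 2 members lay past 1.5-fold, where 33.0% of 1452 genes did. Hormone transcripts filled a larger part of the WT sums, with Cga, the shared alpha subunit, at 157712 CPM in WT against 50300 and 59358 CPM. Under TMM factors the ratios of P27NULL to WT were 0.77 (0.42 to 1.14) for Pitx1 and 0.94 (0.31 to 1.61) for Nr5a1. The median depth per cell differed as well, at 7129.5, 2694.5 and 4741 UMIs.

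Other transcription factors of the gland were read from a list, part of which is reported here. Nr3c1, the glucocorticoid receptor, split the Pomc lineages as Neurod1 did, with 142, 157 and 226 CPM in corticotroph-like and 4.23, 3.39 and 3.08 CPM in melanotroph-like cells. Foxl2 (log2 of melanotroph over corticotroph -6.73) and Nr3c1 (-5.64) lay past 4-fold on the corticotroph side, and Esr1 (3.62, from 557 UMIs against 1) on the melanotroph side. SC-like cells were high in Six6, an early homeodomain factor (268, 222 and 198 CPM), which was also at 164, 166 and 192 CPM in melanotroph-like cells. Insm1 and Foxo1 were at 53.3 to 72.9 and 28.6 to 40.3 CPM in melanotroph-like cells. In gonadotroph-like cells Gata2 (75.7, 241 and 58.7 CPM), Foxl2 (67.6, 178 and 145 CPM) and Nr0b1 (103, 130 and 185 CPM) stood beside Nr5a1, and Rxrg (48.8, 111 and 25.5 CPM) and Neurod4 (20.9, 61.7 and 42.5 CPM) beside Pou1f1 in its lineage. In melanotroph-like cells P27NULL lay above WT in Foxo1 (log2 0.50, 0.24 to 0.76) and Insm1 (0.45, 0.26 to 0.64), both under 1.5-fold.

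Genes whose levels followed a member most closely were found by Pearson correlation of log2(CPM + 10) over 30 units of 1 cell type in 1 library, among 12081 genes. The units share libraries, free RNA and depth, and the values are descriptions. Pax7 was followed by Oacyl (r = 0.91), Gulo (0.85) and Pomc (0.84), and Oacyl was a naming marker. Tbx19 was followed by Dll3 (0.81), Gria2 (0.80) and Egfem1 (0.79), and Neurod1 by Cntnap5a (0.91), Tex14 (0.89) and Nefl (0.86). Nr5a1 was followed by Nr0b1 (0.95), Apoc3 (0.93) and the naming marker Gnrhr (0.92), and Pou1f1 by the naming marker Prl (0.95), Gal (0.90) and Igsf1 (0.88). Isl1 was followed by Tpbg (0.94), Urah (0.90) and Cldn7 (0.84), Lhx3 by Rab25 (0.83) and Epcam (0.83), and Pitx1 by Ly6h (0.91), Syp (0.91) and Fkbp2 (0.88). Among the members the highest r was that of Pitx1 and Lhx3 (0.76) and the lowest that of Tbx19 and Pou1f1 (-0.39).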

How the data were processed

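The authors made 10x Genomics 3′ libraries of dissociated IL, and their deposited tables hold raw UMI counts per gene and cell barcode, with no normalization. Their notes name Cell Ranger 3.0.2, STAR 2.5.1b, R 3.6.0 and Seurat 3, and reads were mapped to GRCm38. According to the methods, cells with few genes or much mitochondrial RNA were removed. No column was left unused. In WT the minimum depth was looser than in the other tables.

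Cells were clustered by the Leiden method on 20 neighbours in 20 principal components of 2000 variable genes, after log transformation of counts brought to 10000 per cell (scanpy 1.11.5, igraph 0.11.9, Python 3.11.15). Melanotroph-like and SC-like cells came from clusters of each library alone (resolution 1), the other types from clusters of all libraries (resolution 2). The 8 members, the other factors and the sex-linked genes were among 35 genes left out. For a name, 3 markers had to be detected at a mean level of 0.3 relative to the highest cluster (0.45 with no marker of its own among the 10 genes highest by fold) and no more markers of another type among those 10. Cells of unnamed joint clusters kept the name of their own library's cluster unless the joint cluster had a low marker level or depth, and 155, 106 and 94 cells stayed unnamed. The thresholds for names were chosen once the data had been seen, and the members and lists were chosen with earlier results of these data known. Doublets were kept: Scrublet marked 11 of 9661 cells, too few to have worked, and 268 top-scoring cells were removed in an alternative.

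UMIs were summed per library and cell type. Levels have exact Poisson, shares exact Clopper-Pearson and log2 ratios exact conditional binomial 95% intervals (scipy 1.17.1). Ratios needed 10 UMIs, and folds were counted over genes with 50 UMIs and a row in both tables. Cell types were called apart where the lowest library value of one lay above the highest of the other. All members are named, other factors where past 1.5-fold or at 20 CPM, and the 3 genes most like each member among those with 100 UMIs, apart from some genes that are not reported here. Cells with a Xist UMI and no Y-linked UMI were called female, and those with no Xist UMI male. Positions and promoters are from RefSeq (GRCm38.p6), where 6 members had a promoter window. The ratio calculation was run on Poisson counts simulated for 11455 genes, P27NULL against WT in melanotroph-like cells. Log2 changes of 1 and -1 were recovered as 1.01 and -1.01, and 95.8% of intervals held the true value. The intervals themselves assume Poisson counts, so this run checks the calculation only and not the spread between cells or animals. Alternatives were edgeR 4.0.16 TMM factors (R 4.3.3), median-of-ratios size factors, a total that leaves out Pomc and the mitochondrial and ribosomal protein genes, 1000 UMIs per cell, thinning by expected values, doublet removal, other clusterings and P27NULL cells of one sex.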

Additional observations from a re-analysis of the deposited data

Results flagged for a closer look

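Pax7 moved in opposite directions in S2CK against P27NULL. Its log2 ratio was 2.29 (95% interval 0.65 to 4.17) in gonadotroph-like cells, from 11 against 5 UMIs, and -0.37 in melanotroph-like cells, from 3007 against 3116 UMIs. Against female P27NULL cells alone the melanotroph-like ratio was -0.06 (-0.20 to 0.07), an interval that holds 0, and with all cells under TMM factors it was -0.24. The difference between the cell types was not tested. In the same gonadotroph-like cells the summed melanotroph markers stood at 16.1% of their melanotroph level in S2CK and 5.53% in P27NULL, and Pomc at 28064 and 6593 CPM. At those shares Pax7 would stand at 28.5 and 12.7 CPM, beside measured values of 49.7 and 10.1 CPM. The part of melanotroph RNA in this result was not tested further.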

How the results depend on the processing

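No paired analysis was possible because each genotype had 1 library, and no replicate could be left out. No ratio whose interval excluded 0 reversed. Ratios with intervals that held 0 could change sign, as for Pou1f1 in Pou1f1-lineage-like cells, S2CK against P27NULL. With all cells its log2 ratio was 0.61 (-0.19 to 1.49). S2CK stood at 302 CPM (236 to 381), below the 342 CPM (187 to 574) of the female P27NULL cells, though these intervals overlapped. In melanotroph-like cells 116 of 130 alternative log2 ratios stayed inside the counting interval. The other 14 were S2CK against P27NULL except 1, Pax7 in P27NULL against WT (0.23 with median-of-ratios factors). With TMM factors, Pax7, Tbx19 and Pitx1 were -0.24, -0.10 and 0.21. With median-of-ratios factors they were -0.22, -0.079 and 0.23, and Lhx3 -0.37. Without Pomc, mitochondrial and ribosomal protein genes, Pax7 and Pitx1 were -0.24 and 0.21. With female P27NULL cells, Pax7, Pitx1, Lhx3 and Isl1 were -0.062, 0.29, -0.24 and 1.25.

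In other types 239 of 243 ratios stayed inside it. Of 117 levels 1 moved, Neurod1 in WT corticotroph-like cells (51.1 CPM with coarser joint clusters). At 1000 UMIs per cell all 8 shares of cells with a UMI were lower: Pax7 17.5% (52.4% as deposited), Tbx19 12.9% (30.7%), Neurod1 8.85% (17.8%), Pitx1 33.9% (71.0%), Lhx3 10.8% (30.3%), Isl1 5.19% (17.6%), Pou1f1 25.0% (62.8%) and Nr5a1 14.3% (42.1%), each over the 3 libraries in its highest type (SC-like for Isl1). Thinning lowers every share by construction.

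With 1 UMI in each library as the only filter, genes past 1.5-fold rose from 1293, 2106 and 1675 to 3038, 3964 and 3435 in melanotroph-like cells (P27NULL against WT, S2CK against P27NULL, S2CK against WT) and from 316, 763 and 772 to 4313, 5811 and 5305 in SC-like cells. Genes with few UMIs pass a fold by counting error more often. Depth limits the small types most: 3 UMIs stand for 37.0 CPM in Pou1f1-lineage-like cells of P27NULL and for 0.221 CPM in its melanotroph-like cells. With male P27NULL cells Pou1f1 in Pou1f1-lineage-like cells was -2.64 (-5.70 to -0.74, 2 UMIs) relative to WT, from -0.65 with all cells.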
